A study of Mus musculus with 6 samples.

Results

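The Notch segmentation clock was followed through 10 of its genes in mouse embryos with and without Paraxis, the somite transcription factor that Tcf15 encodes. They were taken by name and comprise the ligand genes Dll1 and Dll3, the glycosyltransferase gene Lfng, the feedback gene Nrarp, the repressor genes Hes1, Hes5 and Hes7, and the Hey genes Hey1, Hey2 and Heyl. They are 10 of the 28034 gene names on the array, some of which matched no RefSeq symbol. All 12 probes that carry the names of the 10 genes (2 each for Heyl and Lfng) were measured. Every one of the 12 probes was well above background in 6 of 6 measurements of each genotype, and none was saturated, so no member was lost to the filter on dim probes.

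Notch is a receptor that, when a Delta or Jagged ligand on a neighbouring cell binds it, is cut by proteases so that its inner part moves to the nucleus, joins the DNA-binding protein RBPJ and switches on target genes. In the presomitic mesoderm, the unsegmented tissue behind the last somite, many of these targets switch on and off with the period at which somites form, because the Hes repressors and Lfng act back on their own pathway. At the front of the tissue the oscillation slows and stops, and a segment boundary is laid down there.

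The tissue was the anterior presomitic mesoderm together with somites I to IV (the newest 4) of embryos at embryonic day 9.5. Both groups carried the label C57BL/6J for the strain, no agent was listed for either, and they differed in genotype, WT or Paraxis-/-. How the Paraxis allele was made is not given in the sources used here. Each sample was a pool of tissue from 5 embryos, with 3 pools of each genotype that the labels give as separate biological replicates, so the phase of the clock in a single embryo was not measured. Each WT pool was hybridised with 1 Paraxis-/- pool on a 2-colour array and again with the dyes exchanged, which gave 6 arrays and 3 pairs. Pair A joined pools A of both genotypes on slide 1, pair B joined WT pool B and Paraxis-/- pool C on slide 2, and pair C joined WT pool C and Paraxis-/- pool B on slide 2. The spread between 3 pairs limits the precision of every ratio.

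On the arrays, 27080 to 31795 of 43379 gene spots were well above background in a channel. Tcf15, the targeted gene, had log2 ratios of -5.23, -5.48 and -5.52 in pairs A, B and C. It fell by 5.41 on the log2 scale (SE 0.09, limma adjusted p = 0.00054), or 42.5-fold, in the direction of the labels, although whether its probe lies in the part removed is not known here. Markers of the labelled tissue were present: all 9 tested somite markers, of 10 listed, were well above background in 6 of 6 WT measurements. Markers of neural tube (11 of 12 tested), endothelium (11 of 12), blood (9 of 9), surface ectoderm (8 of 9) and posterior presomitic mesoderm and tailbud (9 of 9) were detected too. The pools therefore held RNA of several tissues. In such bulk pools, fewer cells of a type and less RNA per cell cannot be told apart.

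No member passed the test that ran over all genes. With limma on the 3 pair ratios, 0 of the 10 members had a Benjamini-Hochberg adjusted p under 0.05, beside 0.0207% of the 19354 genes tested (4 genes). In the same test run by probe, 0 of the 12 member probes passed, beside 0.0141% of 28422 probes. At an unadjusted p under 0.05 there were 2 members, Heyl and Lfng, against 5.07% of all genes. These 2 were also the members whose WT and Paraxis-/- pools did not overlap in level, as was the case for 5.97% of all genes. The log2 ratio (Paraxis-/- over WT) was positive for 7 members and negative for 3, with a median of 0.11, while the median over all genes was 0.00. The median of the members was 0.30, -0.07 and 0.06 in pairs A, B and C, and without pair A it was -0.032. The sign was the same in all 3 pairs for 4 members, Lfng, Nrarp, Hey2 and Heyl, against 25.8% of all genes. The median size of the ratio, whatever its sign, was 0.17 among the members and 0.07 over all genes. The limma SE of the ratio was also larger among the members, with a median of 0.14 beside 0.08 over all genes. Neither the size nor the SE was compared at matched signal levels. For the 86 other pathway genes described below, the median size was 0.12.

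**Figure D1:**
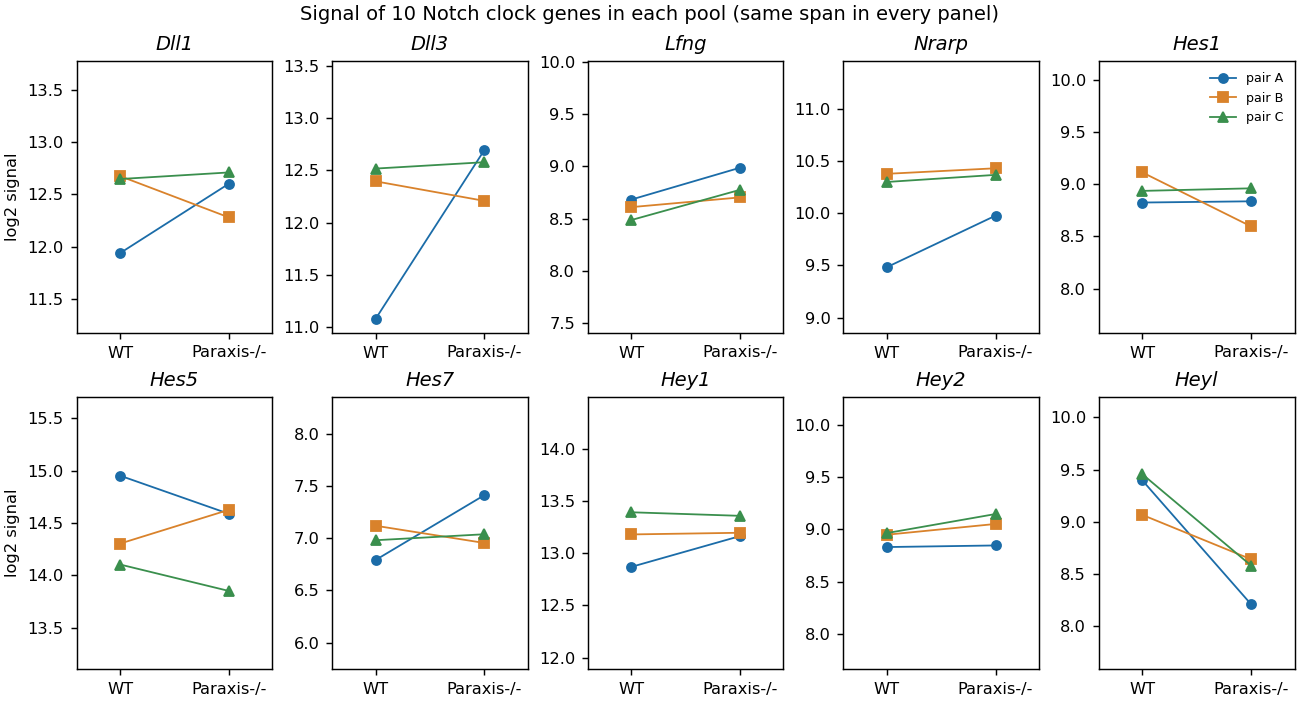
Log2 signal of each of the 10 genes (brightest probe) in the WT and Paraxis-/- pool of each pair. Every panel spans the same range of log2 units, points are single pools (mean of both dye orientations), and lines join pools that shared arrays. Heyl was lower in the Paraxis-/- pool of all 3 pairs, Lfng was slightly higher in the Paraxis-/- pool of all 3, and the other genes vary as much between pairs as between genotypes or differ little.

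Dll1 and Dll3, the Delta-like genes of the presomitic mesoderm, differed more between pairs than between genotypes. Dll1 encodes the ligand that activates Notch there, whereas the Dll3 protein resides mostly inside the cell and dampens signalling. Dll1 had log2 signals of 11.94, 12.67 and 12.65 in the WT pools of pairs A, B and C, and of 12.60, 12.28 and 12.71 in the Paraxis-/- pools. The WT pool of pair A was the lowest of the 6, and the groups overlapped. The log2 ratios were 0.66, -0.40 and 0.06, with a mean of 0.11 (SE 0.21, adjusted p = 0.982). The Dll1 probe lies on the minus strand at chr17:15504623-15504682 (mm9) and was printed 10 times on every array. Within an array the 10 spots had log2 ratios with an SD of 0.02 to 0.06, whereas the SD between the 3 pairs was 0.53. The spot SD covers error within 1 array only, and the 2 arrays of pair B read -0.32 and -0.47.

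Dll3 followed the same order over the pairs with a wider range. Its log2 signal was 11.08 in the WT pool of pair A, 12.40 in that of pair B and 12.52 in that of pair C, and 12.70, 12.21 and 12.58 in the Paraxis-/- pools. The pool that stood apart was again the WT pool of pair A, while the other 5 lay within a narrow band. The log2 ratios were 1.62, -0.19 and 0.06, and the mean of 0.50 (SE 0.37, adjusted p = 0.953) rested on pair A. Both arrays of pair A gave this value (1.61 and 1.62). Without pair A the mean was -0.063 for Dll3 and -0.17 for Dll1. The Dll3 probe lies at chr7:29078763-29078822 on the minus strand (mm9).

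Lfng, which encodes the fringe enzyme that adds a sugar to Notch and alters its response to ligands, was measured with 2 probes that differed. Its brighter probe had log2 signals of 8.68, 8.61 and 8.49 in the WT pools and 8.99, 8.70 and 8.78 in the Paraxis-/- pools. The highest WT pool lay just below the lowest Paraxis-/- pool. The log2 ratios were 0.31, 0.09 and 0.29, with a mean of 0.23 (SE 0.08, unadjusted p = 0.0326, adjusted p = 0.933). On the second probe the levels were 7.35, 7.20 and 7.17 in WT and 7.42, 7.31 and 7.19 in Paraxis-/- pools, which overlapped. That probe gave ratios of 0.07, 0.11 and 0.01, with a mean of 0.07 (SE 0.07, adjusted p = 0.942 in the fit by probe). The pair ratios of both probes were above 0 in all pairs, but averaging the probes left a mean of 0.15. On the second probe only the arrays with WT in Cy5 were above 0. Its dye-swapped arrays read -0.096, -0.0088 and -0.0021 in pairs A, B and C. The brighter probe read 0.22 and -0.033 on the 2 arrays of pair B. The brighter probe also had the second-largest mean dye effect of the 12 probes, -0.18 on the log2 scale, which cancels in the average of a dye-swapped pair.

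Because both genes with an unadjusted p under 0.05 have 2 probes that disagree in size, the first 30 of the 60 bases of each probe are shown, in lower case, with mm9 coordinates of the whole probe on the plus strand. The first of each gene is the brighter one.
Heyl, chr4:122926975-122927034: aatcattttcttcaaggtctttgcccttct
Heyl, chr4:122925488-122925547: actgcagaacagtctcttgacactatgggg
Lfng, chr5:141091224-141091283: tttggaaagctggacaatgagtgccttagt
Lfng, chr5:141090156-141090215: ctatggcatgtttgagaacaagcggaacgc
In both genes the brighter probe has the higher coordinate, and thus lies nearer the 3′ end of these plus-strand genes. Which exon or untranslated region each probe lies in is not annotated here.

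Nrarp encodes an ankyrin-repeat protein that Notch induces and that limits Notch signalling. Its log2 signal was 9.48, 10.38 and 10.30 in WT and 9.98, 10.43 and 10.37 in Paraxis-/- pools of pairs A, B and C. In each pair the Paraxis-/- pool had the higher value, yet the groups overlapped because both pools of pair A were low. The log2 ratios of 0.49, 0.05 and 0.07 had a mean of 0.20 (SE 0.11, adjusted p = 0.950), and of 0.06 without pair A. Nrarp shares chromosome 2 with the targeted gene, at a distance of 127 Mb, and its probe lies at chr2:25038038-25038097 (mm9).

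Of 9 tested markers of the posterior presomitic mesoderm and tailbud, 8 (all but Wnt3a) had ratios in the same order over the pairs (A, then C, then B) as Dll1, Dll3, Hes7 and Nrarp, which were grouped after their values were seen. The brighter Lfng probe had this order too (0.31, 0.09 and 0.29 in pairs A, B and C), but its second probe did not. All 9 of the 9 tested markers had positive mean ratios, and limma called 0 of them (0 also at an unadjusted p under 0.05). Their median ratios were 0.93, -0.34 and 0.22 in pairs A, B and C. Their summed signal spanned 12.10 to 13.47 (log2) in WT pools and 13.00 to 13.58 in Paraxis-/- pools, and each was well above background in at least 4 of 6 measurements of each genotype. That order was also found in 6 of 8 surface ectoderm markers (pair medians 0.55, 0.09 and 0.14) and in the pair medians, though only 2 of 6 genes, of the notochord and gut endoderm list (0.52, 0.02 and 0.10). It was found as well in 7 of 11 genes of the boundary list and in 7 of 15 of the Wnt and FGF list, both described below. The share of all genes with this order is not given here. Blood markers had another order, with pair medians of 0.34, 1.01 and -0.06, a positive mean ratio in 9 of 9 and an unadjusted p under 0.05 in 4. The part of any of these lists in the ratios of the 4 genes was not tested. Pair A is also the only pair on slide 1, so what belongs to the pools and what to the slide cannot be told apart.

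**Figure D2:**
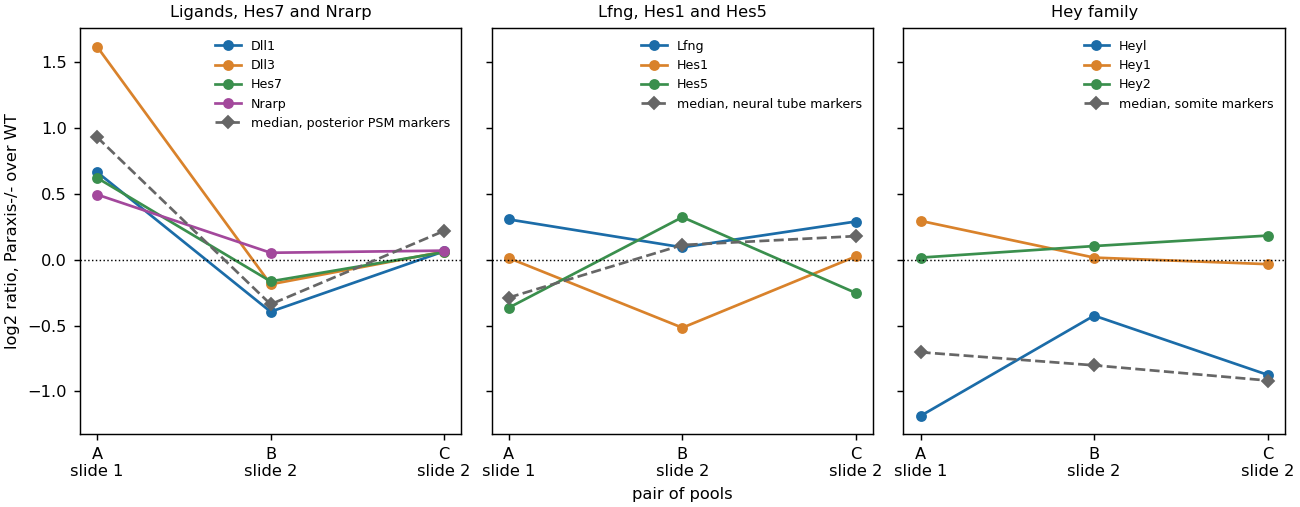
Log2 ratio (Paraxis-/- over WT) of each member in pairs A, B and C, in 3 panels of members, with the median ratio of a marker list in grey diamonds (posterior presomitic mesoderm, PSM, neural tube, or somite). Lines only join the values of 1 gene. Dll1, Dll3 and Hes7 share with the median of the posterior markers (not every marker) a high value in pair A and a value below 0 in pair B. Heyl and the median of the somite markers (not every marker) are below 0 in all 3 pairs.

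The 3 Hes genes encode repressors that sit directly downstream of Notch, and Hes7 is the one whose oscillation is needed for somite spacing. Hes7 had log2 signals of 6.79, 7.12 and 6.98 in the WT pools and 7.41, 6.95 and 7.04 in the Paraxis-/- pools. The groups overlapped, with the Paraxis-/- pool of pair A highest and its WT partner lowest. The log2 ratios of 0.62, -0.16 and 0.06 gave a mean of 0.17 (SE 0.16, adjusted p = 0.959), and of -0.054 without pair A. The scanner software's processed signals, and equally the deposited ratios, gave a mean of 0.50 (SE 0.39), and uncorrected intensities gave 0.25. This probe, at chr11:68935657-68935716 (mm9), also depended most on the dye: the 2 arrays of pair A read 0.98 and 0.26.

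Hes1, which oscillates in the presomitic mesoderm and in many other tissues, had log2 signals of 8.82, 9.11 and 8.93 in WT and 8.83, 8.59 and 8.96 in Paraxis-/- pools. Pairs A and C were level and pair B alone was apart. The log2 ratios were 0.01, -0.52 and 0.02, with a mean of -0.16 (SE 0.13, adjusted p = 0.953) that became 0.018 without pair B. In pair A the value of 0.01 is the average of 0.29 and -0.27 on the 2 dye orientations. The Hes1 probe is listed over 296 bases of the genome, chr16:30065983-30066278 (mm9).

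Hes5, a Notch target best known from neural progenitors, had log2 signals of 14.95, 14.30 and 14.10 in WT and 14.59, 14.63 and 13.85 in Paraxis-/- pools. The groups overlapped, with the WT pool of pair A highest and the Paraxis-/- pool of pair C lowest. The log2 ratios of -0.36, 0.32 and -0.25 gave a mean of -0.10 (SE 0.15, adjusted p = 0.977), which was 0.035 without pair A and 0.019 when the arrays were centred on the median without loess. Neural tube markers had pair medians of -0.29, 0.11 and 0.18 over 11 tested genes, with summed log2 signals of 13.46 to 14.12 in WT and 13.74 to 13.78 in Paraxis-/- pools. They shared the sign of Hes5 in pairs A and B and not in pair C, and their part in the Hes5 values was not tested. The Hes5 probe lies at chr4:154336347-154336406 (mm9).

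The Hey genes encode repressors related to the Hes proteins, and here 1 of the 3 stood apart. Heyl had log2 signals of 9.40, 9.07 and 9.46 in the WT pools and 8.21, 8.64 and 8.58 in the Paraxis-/- pools. Every WT pool was above every Paraxis-/- pool. The log2 ratios were -1.19, -0.42 and -0.87, with a mean of -0.83 (SE 0.16, n = 3 pairs), a signal 1.78-fold lower in Paraxis-/- tissue. The unadjusted p was 0.0033 and the limma adjusted p was 0.572, so this difference did not pass the threshold. Heyl ranked 108 of 19354 genes by p and 59 by the size of its ratio. Flipping the signs of its pair ratios in an exact two-sided permutation gave p = 0.25, the smallest p possible with 3 pairs. The unadjusted 95% interval of the mean ran from -1.23 to -0.43.

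The second Heyl probe was also lower in every pair, but unevenly. It read 8.30, 7.10 and 7.14 in WT and 6.96, 6.84 and 7.02 in Paraxis-/- pools. The groups did not overlap, although the WT pool of pair A lay more than 1 log2 unit above the other 5 pools. The log2 ratios were -1.34, -0.26 and -0.12, with a mean of -0.57 (SE 0.25, adjusted p = 0.882 in the fit by probe). In pairs B and C this probe thus showed a smaller difference than the brighter probe, and with both probes averaged the Heyl ratio was -0.70. Those 5 pools lay at 6.84 to 7.14, below all levels of the brighter probe. How far the offset of 50 used in background correction shrank ratios at such low levels was not tested. The same limit holds for Hes7 (6.79 to 7.41) and the second Lfng probe (7.17 to 7.42). Changes of background correction, normalization, filter or probe choice, and the deposited ratios, left the Heyl ratio between -1.01 and -0.70. Its limma adjusted p then lay between 0.343 and 0.819. Pairing the arrays by their descriptions left the ratio at -0.83 with an adjusted p of 0.206. Without pair B the ratio was -1.03 (adjusted p = 0.992), and without pair A it was -0.65 (adjusted p = 0.566). The lowest adjusted p, 0.0623, came from the fit on all arrays without a block, which counts dye swaps as replicates.

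Hey1 and Hey2 had no comparable difference. Hey1 had log2 signals of 12.87, 13.18 and 13.39 in WT and 13.16, 13.19 and 13.36 in Paraxis-/- pools. Its log2 ratios of 0.29, 0.02 and -0.03 had a mean of 0.09 (SE 0.09, adjusted p = 0.961; -0.0094 without pair A). Hey2, which is also a regulator of heart and vessel development, read 8.83, 8.95 and 8.96 in WT and 8.85, 9.05 and 9.15 in Paraxis-/- pools. The pools of both genes overlapped. The Hey2 ratios were 0.02, 0.10 and 0.18, with a mean of 0.10 (SE 0.07, adjusted p = 0.953), and of 0.059 without pair C. The unadjusted 95% intervals, -0.15 to 0.33 for Hey1 and -0.08 to 0.28 for Hey2, do not reach the size measured for Heyl. The probes lie at chr3:8663432-8663491 for Hey1 and chr10:30552729-30552788 for Hey2, both on the minus strand (mm9).

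Within pairs, the Heyl ratio lay below the Hey1 ratio by -1.48, -0.44 and -0.84 (mean -0.92, SD 0.52) and below the Hey2 ratio by -1.20, -0.53 and -1.06 (mean -0.93, SD 0.35). These differences between members were not tested. Lfng minus Nrarp was -0.19, 0.04 and 0.22 (mean 0.02, SD 0.21), with no common sign.

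**Figure D3:**
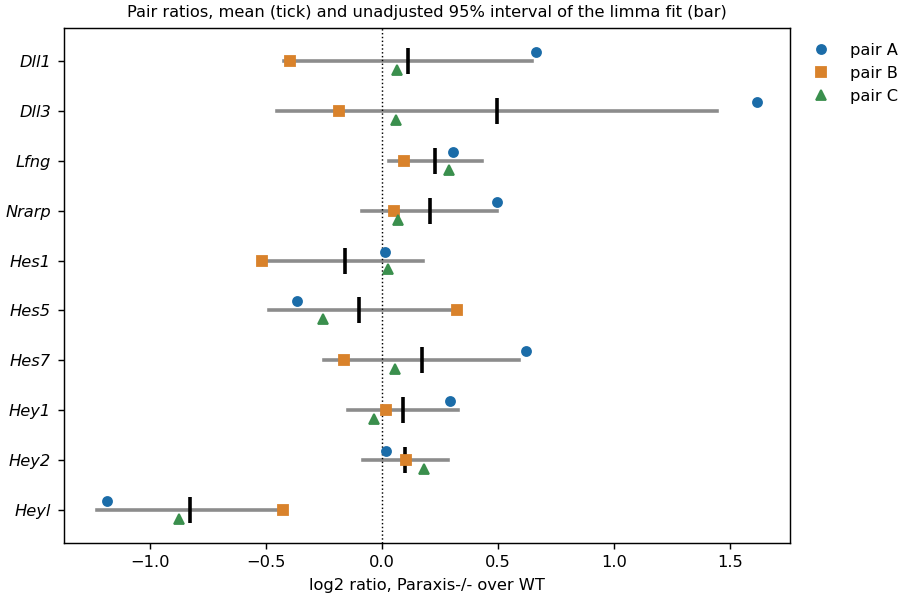
Log2 ratio (Paraxis-/- over WT, horizontal axis) of each member in pair A, B and C, with the mean as a black tick and the unadjusted 95% interval of the limma fit as a grey bar, n = 3 pairs. The intervals of Heyl and Lfng do not include 0, those of the other 8 genes do, and the values of pair A lie farthest to the right for Dll1, Dll3, Lfng, Nrarp, Hes7 and Hey1.

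The direction of each ratio was checked by the dye swap, in which the same 2 pools were hybridised with the dyes exchanged. For Heyl in pair A the brighter probe read -1.24 and -1.13 on the 2 arrays. In pair B it read -0.43 and -0.42, and in pair C -0.76 and -0.99. All 6 arrays thus had the same sign for this probe. For other members the 2 orientations had opposite signs in some pairs. These were Hes1 in pair A, Hes7 and Hey1 in pairs B and C, and Dll3, Nrarp and Hey2 in pair C. For Lfng this was so in pair B on the brighter probe and in all pairs on the second. Lfng, Nrarp and Hey2, whose pair ratios were all above 0, thus did not keep that sign on all 6 arrays. The dye effect, which is how far each orientation lies from their average, was at most 0.27 in size among the 12 probes (Hes7, -0.27) when averaged over the pairs, and its median over all genes was 0.06. For Hes7, Hey1 and the second Lfng probe the dye effect was larger than the mean ratio.

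**Figure D4:**
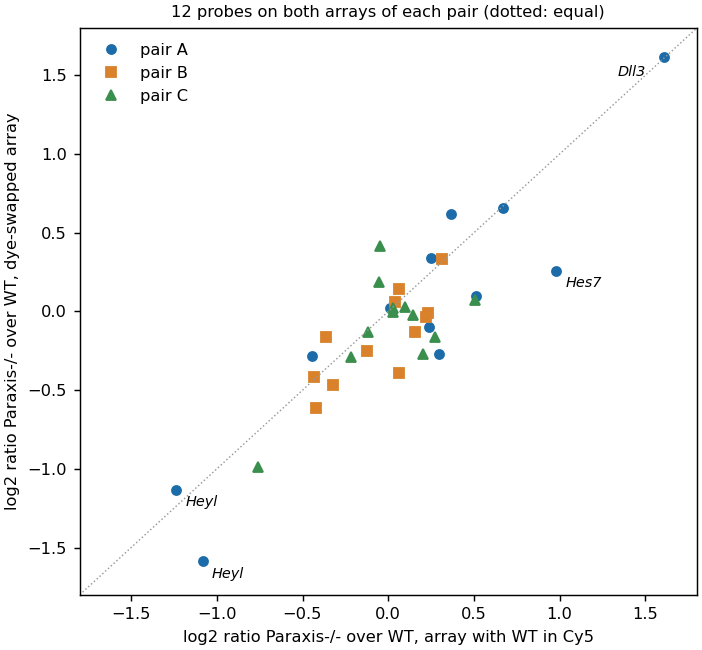
Log2 ratio (Paraxis-/- over WT) of the 12 member probes on the array with WT in Cy5 (horizontal) and on its dye-swapped array (vertical), 1 point per probe and pair, with the line of equality dotted. Dll3 and both Heyl probes in pair A lie far from 0 on both arrays, whereas Hes7 in pair A reads 0.98 on one and 0.26 on the other.

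Heyl was the member with the largest mean ratio, and the genes most like it were those whose 3 pair ratios lay nearest to its own. Among 15385 genes with a symbol, the nearest 5 were Twist2, Tnfaip6, Aldh1b1, Tbx18 and Eya2. Twist2, a basic helix-loop-helix factor of mesenchyme, had ratios of -1.17, -0.27 and -0.75 at a Euclidean distance of 0.20. Tnfaip6, which encodes a hyaluronan-binding protein, had -1.36, -0.57 and -0.85 at a distance of 0.23. Aldh1b1, a mitochondrial aldehyde dehydrogenase gene, followed at 0.27, Tbx18, a T-box gene of the anterior part of each somite, at 0.42 and Eya2, a transcriptional co-activator gene, at 0.44. Their mean ratios ran from -1.02 for Tbx18 to -0.69 for Aldh1b1, and none of the 5 passed the test (adjusted p from 0.179 to 0.866). The 9 tested somite markers, which include Tbx18 and Tcf15 itself, had a median ratio of -0.78, with pair medians of -0.70, -0.80 and -0.92. Of them 2 passed, Tcf15 and Pax1, the latter named after its value was seen. Without Tcf15, the other 8 had a median of -0.64, and 5 of the 8 were below 0 in all 3 pairs, but the summed log2 signal overlapped, at 15.21 to 15.60 in WT and 14.90 to 15.58 in Paraxis-/- pools. Meox1, the brightest of the 8 and likewise singled out afterwards, had a positive ratio of 0.24. Whether the Heyl ratio moves with the amount or the state of somite tissue was not tested.

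The rest of the pathway gave a background for these values. Over 86 other tested genes in 6 lists, limma called 0. At an unadjusted p under 0.05 there were 3 with positive and 2 with negative ratios, 5.81% of the 86 beside the 5.07% of all genes. Their median ratio was -0.00. Among 9 receptors and further ligands the median was 0.00 and none had an unadjusted p under 0.05. Notch1, the main receptor in this tissue, had a ratio of 0.00 (SE 0.12) from pair values of 0.21, 0.08 and -0.29, and Notch2 had 0.13 (SE 0.08). Notch3 had -0.12 and the ligand gene Dll4 0.08. Dlk1, an atypical ligand gene, had a mean of -0.46 (SE 0.49) that came from pair A alone, with values of -1.97, 0.48 and 0.11.

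Of the genes for processing, sorting and glycosylation of Notch, 23 were tested and 3 had an unadjusted p under 0.05, all with positive ratios, while the list median was -0.01. Itch, a ubiquitin ligase gene whose product targets Notch, had ratios of 0.43, 0.44 and 0.58, with a mean of 0.48 (SE 0.07, adjusted p = 0.429). Dtx1, a Deltex ubiquitin ligase gene and Notch target, had 0.96, 0.60 and 0.41, with a mean of 0.66 (SE 0.12, adjusted p = 0.563). Furin, the protease gene for the first cut of the receptor, had a mean of 0.25 (SE 0.07, adjusted p = 0.933), and Dtx3 had -0.17. As with Heyl, none of these passed.

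Of the nuclear complex and its co-repressors, 18 of 19 were tested (Hdac1 had no probe found by name), with a median of -0.04 and no unadjusted p under 0.05. Rbpj, the DNA-binding partner of Notch, had a ratio of -0.02 (SE 0.07) with pair values of -0.00, 0.07 and -0.12. The 4 genes with the smallest p, all encoding co-repressors, were Ctbp1 at -0.17, Spen at -0.16, Tle2 at 0.16 and Cir1 at -0.21. Among 10 other Hes genes and further targets the median was -0.07 and none had an unadjusted p under 0.05. Hes6, which counters Hes1, had -0.19 (SE 0.11), Id2 -0.23 (SE 0.11), Ccnd1 -0.11 and Bhlhe41 0.12.

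The clock is read out at the segment boundary, where Mesp2 is switched on under Notch and Tbx6. Of 13 genes of the boundary and the determination front, 11 were tested, and Ripply1 and Ripply2 had no probe found by name. The median ratio was 0.01, with pair medians of 0.42, -0.21 and -0.04, and 1 gene, Foxc1, had an unadjusted p under 0.05. Foxc1, a forkhead gene needed for segmentation, had -0.28 (SE 0.10, adjusted p = 0.947), its relative Foxc2 -0.24 and the Eph receptor gene Epha4 -0.20. Mesp2 had 0.02, -0.17 and -0.37, with a mean of -0.18 (SE 0.10, adjusted p = 0.950). Tbx6, singled out after its values were seen, had ratios of 2.43, -0.59 and 0.22, the order over the pairs that Dll1 and Dll3 also had.

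The clock has Wnt and FGF arms beside Notch, and all 15 of the genes listed for them were tested. Their ratios were positive for 12 and negative for 3, with a median of 0.14 and pair medians of 0.41, -0.05 and 0.12, beside pair medians of 0.30, -0.07 and 0.06 for the Notch members. The 1 gene with an unadjusted p under 0.05 was Myc, with a ratio of -0.28 (SE 0.10, adjusted p = 0.933). Axin2, the Wnt feedback gene that oscillates in the clock, had 0.33, 0.02 and 0.46, with a mean of 0.27 (SE 0.10, adjusted p = 0.950). Efna1 had 0.19 and Phlda1 -0.15. The pair median was thus highest in pair A here too.

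The promoters of 7 of the 10 members (all but Hes1, Hey1 and Heyl) were matched in a RefSeq table (GRCm38.p6) and searched on both strands, in the 250 bases before the start, for TGGGAA, the core of the sequence that RBPJ binds. It was found in 4 of the 7, Hes5, Hes7, Hey2 and Lfng, and in 21.6% of 32851 promoters of that length. The longer GTGGGAA was in the same 4 and in 5.4% of all. One window of 30 bases is shown for each of the 4, because this core is the contact through which Notch reaches its targets. The windows are written 5′ to 3′ along the gene, with the 6 core bases or their reverse complement in capitals.
Hes5, chr4:154960829-154960858: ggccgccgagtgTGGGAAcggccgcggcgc
Hes7, chr11:69120261-69120290: tcctcccctcacTTCCCAcatttggggcta
Hey2, chr10:30842973-30843002: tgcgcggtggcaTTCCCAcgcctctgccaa
Lfng, chr5:140607221-140607250: ccgtatcccacgTGGGAAggagagatctcc
The core began 82 bases before the start in Hes5, 180 in Hes7, 207 in Hey2 and 108 in Lfng. Hes5 and Lfng had a second match at 226 and 135 bases. CACGTG, an E-box, was in Lfng, where it overlaps the core shown, and in Nrarp, against 6.0% of all promoters. The 4 genes with the core had mean log2 ratios of -0.10, 0.17, 0.10 and 0.23, in the order of the windows, and none of these passed the test. A match describes the letters in the window and not binding.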

How the data were processed

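RNA from 3 pools of each genotype was compared on 6 two-colour Agilent arrays (3 dye-swapped pairs). The authors deposited scanner files, which per the file headers hold spot and background intensity of both channels and the log10 ratio of Cy5 over Cy3. The headers name Agilent Feature Extraction 10.7.3.1 (slide 1) and 10.5.1.1 (slide 2), and the submitters' processing notes version 8.5.1.1. Those log10 ratios are repeated in the deposited series matrix.

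Median intensities were corrected with normexp (offset 50) and normalized with limma's loess (limma 3.58.1, R 4.3.3), with control spots at weight 0 and outlier spots left out. Ratios were turned to log2 Paraxis-/- over WT and both arrays of a pair averaged, so n is 3 pairs. Levels are log2 values after loess and Aquantile. Probes well above background in at least 4 of 6 measurements of either genotype were kept (28639 of 41174), and the brightest stood for a gene. The 19354 genes with at least 2 pairs (74 with fewer than 3) were tested two-sided with lmFit and eBayes, and p-values were adjusted over all of them (Benjamini-Hochberg). The code was tested on simulated data. Names were matched to a RefSeq list of GRCm38.p6, and names without a match (8343 probes) were kept and counted as genes. Probe coordinates are mm9, and promoter windows GRCm38.p6.

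For 2 arrays the titles and descriptions name different pools, and pairs follow the titles. Across genes, the 2 arrays that a title pairs had deviations from their orientation's mean that correlated with r of 0.38, 0.62 and 0.61 (other combinations -0.43 to -0.06). Taking off the mean by itself pulls the other combinations down. Without that step r was 0.306, 0.275 and 0.568 (other combinations -0.13 to 0.0864). The pair is therefore the replicate. Alternatives covered background correction, normalization, filter, deposited ratios, pairing, blocks and left-out pairs.

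The members and all gene lists were chosen with earlier results of these data known. Named were the members, Tcf15, up to 4 genes with the smallest p of each pathway list, Notch1, Rbpj, Mesp2 and Ripply2, and the 5 genes nearest to the member with the largest ratio. Tbx6, Pax1, Meox1 and Wnt3a fall outside this rule and were named after their values were seen.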

Additional observations from a re-analysis of the deposited data

How the results depend on the processing

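In 16 alternatives, limma with Benjamini-Hochberg adjustment called 0 of the 10 members, as in the main analysis, where 2 had an unadjusted p under 0.05. Of 160 member ratios, 148 kept their sign and side of the threshold and 12 changed sign. Not all of these are separate checks. Slide 2 alone and leaving out pair A give the same ratios, so their sign changes are counted 2 times. Processed signals and deposited ratios also give the same member ratios. Within slide 2 alone, which is the same as leaving out pair A, the ratio was -0.17 for Dll1, -0.063 for Dll3, 0.035 for Hes5, -0.054 for Hes7 and -0.0094 for Hey1. Hes5 was 0.019 with median centring and no loess, and Hes1 0.018 without pair B. Heyl, Lfng, Nrarp and Hey2 kept their sign throughout. With 1 pair left out in turn, the ratio ranged from -0.17 to 0.36 for Dll1, from -0.063 to 0.84 for Dll3, from -0.25 to 0.018 for Hes1, from -0.31 to 0.035 for Hes5, from -0.054 to 0.34 for Hes7, from -0.0094 to 0.15 for Hey1, from 0.06 to 0.28 for Nrarp, from 0.059 to 0.14 for Hey2, from 0.19 to 0.30 for Lfng and from -1.03 to -0.65 for Heyl. The replicate block (6 arrays, the pair of pools as a random block) left Heyl at -0.83 with an adjusted p of 0.107, and without a block it was 0.0623. The 4 genes called over all genes (2 higher, 2 lower) became 18 with ratios scaled between arrays (4 higher, 14 lower), 40 with the replicate block, 69 without a block (30 higher, 39 lower), 42 with slide as a block and 2 within slide 2. With 1 pair left out they ranged from 0 to 2, where 0 came without pair B. Fits on all 6 arrays without a block count dye swaps as replicates. The fit with slide as a block does not block the pair of pools, so its 42 calls also rest on dye-swapped arrays of the same pools. The slide block on the 3 pair ratios could not be fitted, and the one on 6 arrays was added after seeing the data. Causes were not tested. All member probes were well above background, but the Hes7 ratio was 0.17 with normexp, 0.25 without background correction and 0.50 with processed signals.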
